A study of Mus musculus with 21 samples.

Results

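The mitosis and spindle genes examined here are 40 genes of the machinery that separates chromosomes and divides the cell. They were chosen by symbol for their known roles in mitosis, and all 40 were found among the 27968 genes of the sorted-cell expression table and the 22899 genes of the coculture expression table. By role, they are 6 mitotic kinases, 4 genes of the spindle checkpoint, 6 genes of the entry into mitosis and of anaphase, 5 genes of the kinetochore and centromere, 7 kinesins and spindle proteins, 2 further subunits of the chromosomal passenger complex, 3 genes of cytokinesis, 6 genes of chromosome structure or proliferation marks, and the transcription factor gene Foxm1.

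RNA-seq was carried out on 21 libraries in 7 groups, with 3 libraries in each group. The study uses the term biological replicates for the sorted-cell libraries. Total cells of day 5 made up the groups 3D+OP9 and 3D+0.1% gelatin, after hematopoietic-like colonies of embryoid bodies from a 3D self-assembling peptide had been reseeded on OP9, a mouse stromal line kept from dividing by mitomycin C, or on gelatin without stroma. For the OP9 coculture the study lists SCF, IL-3 and Flt3 ligand in the medium. D5-LSKCD201+ and D5-LSKCD201- were sorted on day 5 from the 3D+OP9 system, and mESC were undifferentiated mouse embryonic stem cells sorted on SSEA-1. The sample labels give the strain 129/ola for all of these, while the study's methods name embryonic stem cells of both 129/ola and C57BL/6 origin without assigning them to libraries. FL-LSKCD201+ came from C57BL/6 fetal liver at embryonic day 12.5 and BM-LSKCD201+ from the bone marrow of C57BL/6 adults 6 to 8 weeks old, so that, with the strains as labelled, strain and growth in culture cannot be told apart in any comparison of day 5 cells with BM or FL cells, nor can age and organ between FL and BM. LSK stands for lineage-negative, Sca-1-positive and c-kit-positive, a phenotype that holds the hematopoietic stem cells (HSCs), and CD201 is the surface receptor encoded by Procr that enriches HSCs further.

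As background, cells that enter mitosis switch on a shared set of genes in G2. Aurora and Polo-like kinases build the spindle, the checkpoint holds anaphase back until each kinetochore is attached, the anaphase-promoting complex with Cdc20 then destroys securin and cyclin B, and the chromosomal passenger complex and centralspindlin complete cytokinesis. In resting cells the DREAM complex, which holds p130 (Rbl2) and the MuvB core, represses these genes through CHR elements in their promoters. In cycling cells B-Myb (Mybl2) and Foxm1 activate the same genes, often together with NF-Y bound at CCAAT boxes. Adult bone marrow HSCs are known to be mostly resting, whereas fetal liver HSCs are expanding and pluripotent stem cells divide rapidly.

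Promoter windows from 250 bases before to 50 after the start were taken from RefSeq (GRCm38.p6), which gave 36 windows for 33 of the 40 genes. No window was at hand for Aurkb, Tpx2, Foxm1, Incenp, Kif20a, Cdc25c and Smc4. Both strands were searched for the CHR element, spelled TTTGAA, for the CCAAT box by its own 5 letters, which read ATTGG from the other strand, and for the E2F elements spelled TTCCCGC or TTGGCGC. The second E2F spelling can share bases with a reversed CCAAT box. A CHR element stood in 26 of the 36 windows (72.2%), against 17.9% of all 32851 windows. At least 1 CCAAT box stood in 72.2% of the members' windows against 37.4% of all, and an E2F element in 16.7% against 6.8%. A CHR element together with 2 or more CCAAT boxes stood in 14 windows of 12 members (38.9%), against 2.1% of all windows. In the 50 windows of a list of other mitosis genes, used further on, the shares were 52.0% for the CHR element, 62.0% for the CCAAT box, 24.0% for a CHR element with 2 or more CCAAT boxes and 26.0% for an E2F element, the last above that of the members. The printed sequences are from 3 of the genes called lower in the CD201-positive day 5 fraction below (Cdc20, Cenpf and Ect2) and Mki67, the member whose difference there had the opposite sign. Only windows with a CHR element and 2 or more CCAAT boxes were printed. This left out Kif23, also called lower, whose window held 1 CHR element and 1 CCAAT box. Each runs 5′ to 3′ on the minus strand of GRCm38.p6, at chr4:118437347-118437406 for Cdc20, chr1:189688079-189688228 for Cenpf, chr3:27153834-27154002 for Ect2 and chr7:135716472-135716577 for Mki67, and capitals mark the CHR elements and the CCAAT boxes.
Cdc20: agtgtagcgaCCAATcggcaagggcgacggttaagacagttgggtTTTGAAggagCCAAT
Cenpf: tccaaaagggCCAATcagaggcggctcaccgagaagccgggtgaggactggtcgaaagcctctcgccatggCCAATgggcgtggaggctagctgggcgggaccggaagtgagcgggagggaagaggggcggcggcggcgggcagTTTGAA
Ect2: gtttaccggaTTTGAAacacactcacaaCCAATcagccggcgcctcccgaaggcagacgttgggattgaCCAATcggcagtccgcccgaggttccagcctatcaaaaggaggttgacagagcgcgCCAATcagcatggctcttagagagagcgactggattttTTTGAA
Mki67: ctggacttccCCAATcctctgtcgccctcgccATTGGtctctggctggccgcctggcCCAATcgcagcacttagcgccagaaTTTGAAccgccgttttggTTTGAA
In Cdc20 the CHR element began 18 bases before the start, between CCAAT boxes at -53 and -8, and in Cenpf the CHR element lay just after the start at position 3 behind CCAAT boxes at -132 and -71. Ect2 held CHR elements at -138 and 16 and CCAAT boxes at -120, -79 and -23. Mki67 held the same elements, with CHR elements at -116 and -98, so that the letters searched for did not separate the genes that were lower from the one that was not. A match is a description of the sequence and not a measured binding site.

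The labels were first set against marker genes. Procr was listed at 59.2, 61.9 and 57.9 FPKM in D5-LSKCD201+ and at 3.59, 3.02 and 3.82 in D5-LSKCD201-. The summed level of 8 pluripotency genes was 6835 to 7400 FPKM in mESC, 3749 to 4247 in D5-LSKCD201- and 24.5 to 32.8 in D5-LSKCD201+. The summed level of 8 endothelial genes was 1394 to 1414 FPKM in D5-LSKCD201+, 154 to 174 in D5-LSKCD201- and 105 to 207 in FL- and BM-LSKCD201+. Most of the D5-LSKCD201- sum was Sox17, at 89.8, 105 and 101 FPKM, while Cdh5 was at 2.55, 2.23 and 2.16. Ptprc, which encodes the pan-leukocyte antigen CD45, was at 0.305, 0.321 and 0.602 FPKM in D5-LSKCD201+, against 38.4 to 52.1 in FL-LSKCD201+ and 64.3 to 71.6 in BM-LSKCD201+. The defining blood marker was therefore close to 0 in the day 5 cells, and the D5-LSKCD201- libraries kept pluripotency transcripts, whose part in the results below was not tested. The summed level of 10 stromal genes was 99.7 to 106 FPKM in D5-LSKCD201+ and 41.6 to 76.8 in D5-LSKCD201-. FL-LSKCD201+ also held erythroid (summed 4860 to 10921 FPKM for 8 genes) and hepatocyte (375 to 587 for 6 genes) transcripts. The same 6 genes, listed for hepatocytes or visceral endoderm, summed to 24.7 to 27.2 in D5-LSKCD201- and 2.99 to 3.94 in D5-LSKCD201+. In 4 groups 1 library stood apart from the other 2 over all genes, namely replicate 2 of D5-LSKCD201-, replicate 1 of FL-LSKCD201+, replicate 1 of BM-LSKCD201+ and replicate 3 of 3D+OP9.

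Those 4 libraries carried particular members with them. In D5-LSKCD201- replicate 2, Espl1, Foxm1, Incenp and Ncapd2 were lower by over 0.5 on the log2 scale than the mean of the other 2 libraries, and no member was higher by as much. In FL-LSKCD201+ replicate 1 the same was seen for 7 members (Pttg1, Smc2, Birc5, Mki67, Cenpf, Smc4 and Cenpe), and Bub1b was higher. In BM-LSKCD201+ replicate 1 Plk1 was lower and Prc1 and Kif2c higher, and in 3D+OP9 replicate 3 Cdc25b was higher. The other 2 libraries of each of these groups differed by at most 0.30 for any member. Nothing in the labels says whether the 2 close libraries of a group came from separate cultures or animals, and FPKM without counts did not allow a test of it, so that SE and p, which take all 3 as independent, may be too small. Averaging each close pair to 1 sample, a choice made after seeing the data, left the number of members called by adjusted p and fold unchanged in each of the 6 comparisons that hold such a pair, and left 34 in place of 37 members lower by adjusted p alone between the day 5 fractions. Some values without the libraries that stood apart are given below.

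**Figure D1:**
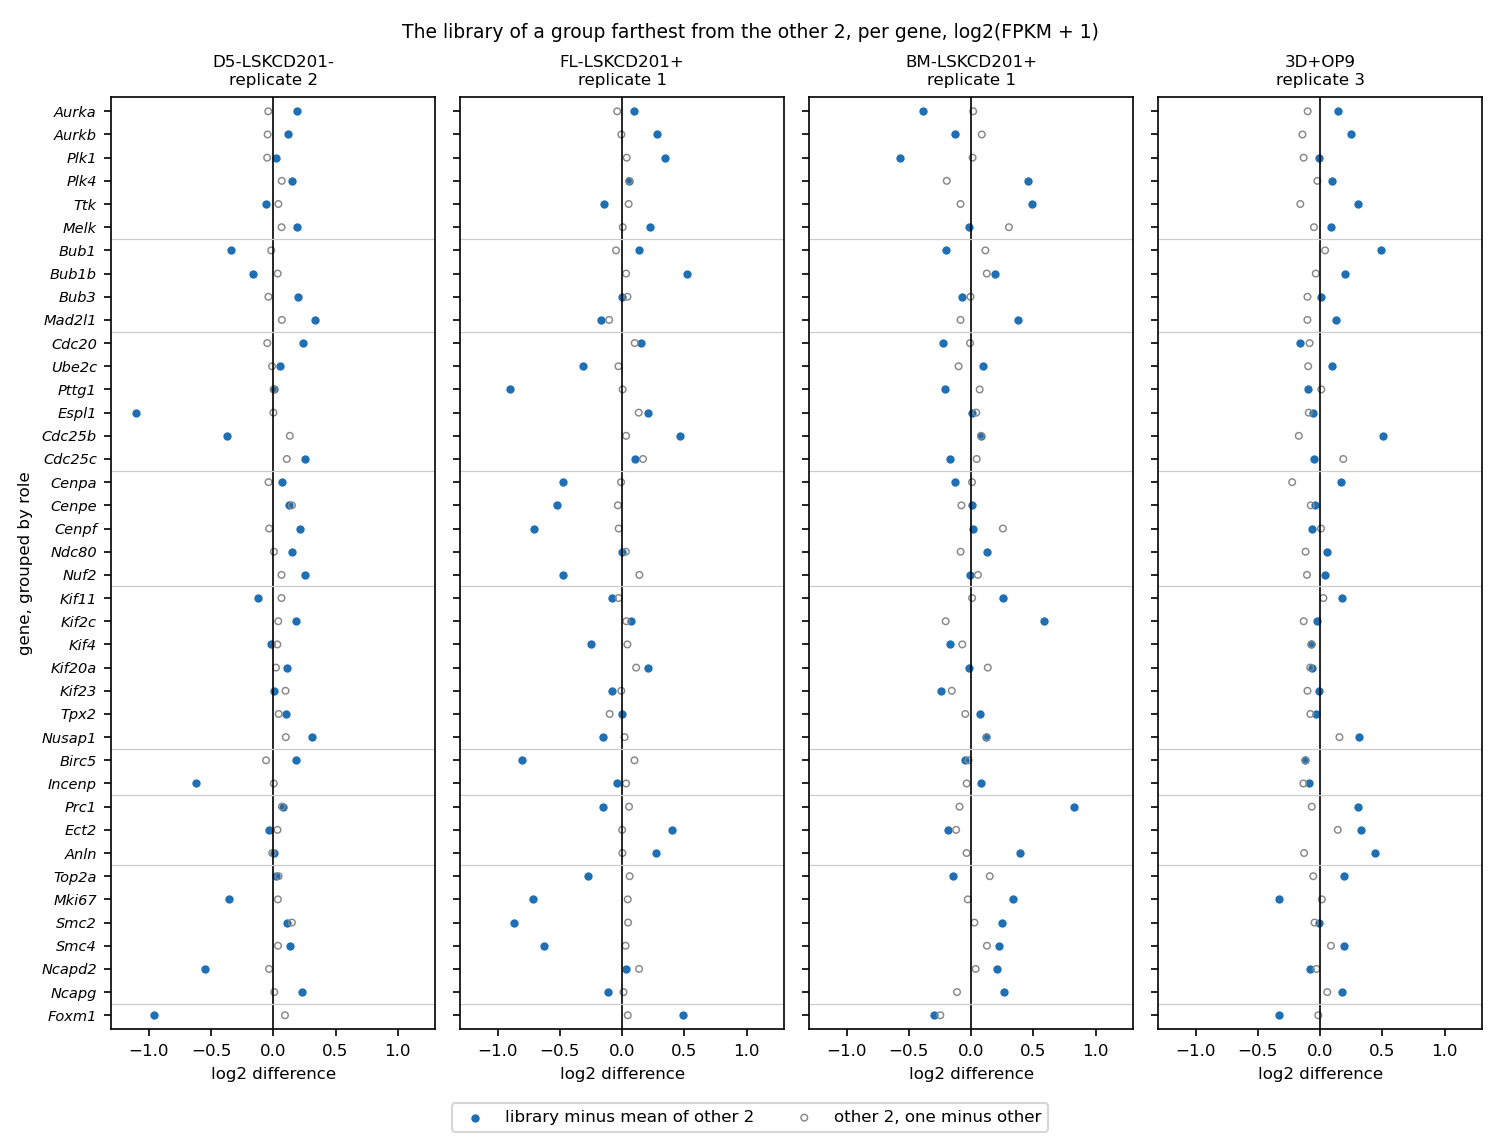
Log2(FPKM + 1) of each of the 40 genes in the library that stood apart minus the mean of the other 2 libraries of its group (filled points), and 1 of those other 2 minus the other (open points), for D5-LSKCD201- replicate 2, FL-LSKCD201+ replicate 1, BM-LSKCD201+ replicate 1 and 3D+OP9 replicate 3. The filled points reach -1.10 for Espl1 in D5-LSKCD201- and -0.90 for Pttg1 in FL-LSKCD201+, while most members lie near 0.

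Of the 40 members, 21 had their highest mean in mESC, 15 in D5-LSKCD201- and 4 in FL-LSKCD201+ (Mki67, Cdc25b, Smc2 and Smc4), and nearly all were at their lowest in adult bone marrow. The median of the 40 group means was 73.6 FPKM in mESC, 63.6 in D5-LSKCD201-, 41.3 in D5-LSKCD201+, 29.3 in FL-LSKCD201+ and 6.37 in BM-LSKCD201+. FPKM divides the fragments of a gene by the length of its transcript and by the size of the library, so that levels of different genes can be set side by side within a table. The summed level of the 40 genes ran from 3769 to 3819 in the mESC libraries, 3638 to 3865 in D5-LSKCD201-, 2343 to 2382 in D5-LSKCD201+, 1743 to 2087 in FL-LSKCD201+ and 528 to 533 in BM-LSKCD201+, and only the first 2 of these groups overlapped. The order mESC, D5-LSKCD201-, D5-LSKCD201+, FL-LSKCD201+, BM-LSKCD201+ was that of 18 members, and the same order with mESC and D5-LSKCD201- exchanged was that of 10 more. BM-LSKCD201+ was lowest for 39 of the 40 members, Pttg1 being the exception. These are bulk samples, in which fewer dividing cells and less RNA of a gene per dividing cell cannot be told apart.

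**Figure D2:**
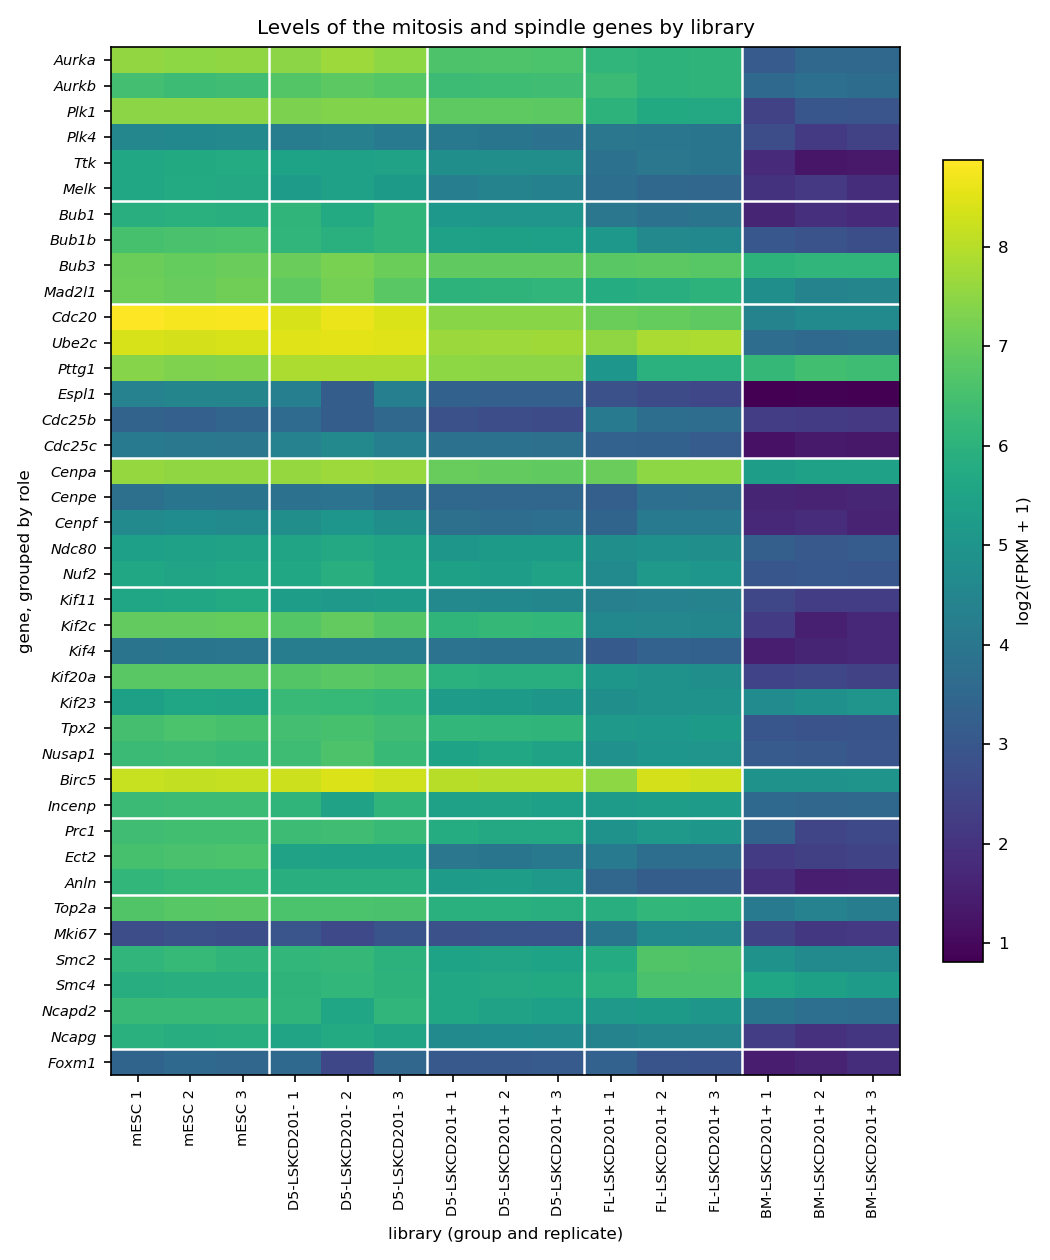
Heat map of log2(FPKM + 1) for the 40 mitosis and spindle genes (rows, by role) in the 15 sorted-cell libraries (columns, 3 per group). The median of the group means falls from 73.6 FPKM in mESC to 6.37 in BM-LSKCD201+, and Mki67, Smc2 and Smc4 stand out as highest in FL-LSKCD201+.

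In the following, means of 3 libraries are given in FPKM in the order mESC, D5-LSKCD201-, D5-LSKCD201+, FL-LSKCD201+ and BM-LSKCD201+. The SD was within 20% of the mean in 179 of the 200 combinations of member and group, with a median of 3.1% in mESC, 7.2% in D5-LSKCD201-, 3.3% in D5-LSKCD201+, 10.4% in FL-LSKCD201+ and 10.5% in BM-LSKCD201+. The 21 combinations above 20% were Espl1, Incenp, Ncapd2 and Foxm1 in D5-LSKCD201-, 10 members in FL-LSKCD201+ (Bub1b, Pttg1, Cdc25b, Cenpe, Cenpf, Birc5, Mki67, Smc2, Smc4 and Foxm1) and 7 in BM-LSKCD201+ (Plk1, Plk4, Ttk, Kif2c, Prc1, Anln and Foxm1).

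Among the mitotic kinases, Aurka, the Aurora kinase of the spindle poles, averaged 185, 188, 97.4, 66.2 and 9.49. Plk1, the Polo-like kinase needed from mitotic entry to cytokinesis, averaged 177, 160.0, 115, 55.03 and 5.88. Aurkb, the kinase of the chromosomal passenger complex, averaged 83.6, 109, 81.3, 69.6 and 11.7. Each of these 3 had its lowest mean in bone marrow. Plk4, which starts centriole duplication, averaged 22.9, 17.6, 14.6, 14.7 and 4.41. Ttk, the checkpoint kinase MPS1, averaged 51.6, 42.8, 26.9, 14.3 and 1.84 and Melk averaged 50.1, 38.8, 19.4, 10.8 and 3.01. Of the 6 kinases, Plk4 had the smallest ratio between its highest and its lowest group mean.

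Of the spindle checkpoint genes, Bub1 averaged 59.5, 62.5, 32.2, 14.3 and 2.41, and Bub1b, which encodes BubR1, averaged 92.8, 64.7, 41.01, 26.5 and 6.38. Mad2l1, the MAD2 protein that binds Cdc20, averaged 133, 125, 65.7, 58.99 and 22.97. Bub3 had the most even level of the 40 genes between mESC and FL-LSKCD201+, at 129, 139, 119, 111 and 66.7. Its table locus spans 2961905 bases against 11674 for the GENCODE gene, so that its FPKM may hold transcripts of neighbouring genes and its values here and below are uncertain. Among the genes of mitotic entry and anaphase, Cdc20, the activator of the anaphase-promoting complex, had the highest mean of any member and averaged 451, 359, 173, 124 and 22.97. Ube2c, the ubiquitin-conjugating enzyme of that complex, averaged 331, 361, 205, 216 and 11.4. Espl1, the separase that cuts cohesin, averaged 20.9, 15.2, 8.78, 5.34 and 0.782, and its bone marrow mean was the lowest of any member. Pttg1 encodes securin, the inhibitor of separase, and averaged 164, 234, 178, 51.8 and 79.3. It was the single member with a lower mean in FL-LSKCD201+ than in BM-LSKCD201+. The phosphatase genes that activate CDK1 averaged 9.36, 10.01, 5.69, 13.8 and 3.64 (Cdc25b) and 15.7, 20.6, 13.2, 8.71 and 1.48 (Cdc25c), and Cdc25b was highest in fetal liver.

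At the kinetochore, Cenpa, the histone H3 variant of the centromere, averaged 187, 198, 123, 163 and 41.01. The NDC80 complex subunits that bind microtubules averaged 41.7, 46.6, 34.8, 27.5 and 7.91 (Ndc80) and 47.7, 50.7, 40.97, 30.1 and 6.93 (Nuf2). The pair put the 5 groups in the same order. Cenpe, a kinetochore motor, averaged 13.8, 12.9, 10.3, 11.4 and 2.09, and Cenpf, a large kinetochore protein, averaged 24.5, 28.7, 12.5, 14.03 and 2.31. Among the kinesins, Kif11, the motor that separates the spindle poles, averaged 49.03, 36.7, 22.4, 19.9 and 4.14. Kif2c, a microtubule depolymerase, averaged 123, 111, 69.5, 22.3 and 2.62 and spanned the widest range of the kinesins. Kif4 averaged 14.3, 17.3, 13.4, 8.56 and 2.06, Kif20a averaged 111, 107, 58.6, 29.9 and 4.43 and Kif23, a subunit of centralspindlin, averaged 44.04, 72.5, 35.4, 28.6 and 27.9. Kif23 differed from the other kinesins in that its FL and BM means lay side by side. The spindle assembly factors averaged 92.2, 87.4, 68.3, 34.7 and 6.56 (Tpx2) and 77.7, 85.9, 45.4, 30.7 and 7.19 (Nusap1).

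Of the chromosomal passenger complex, Birc5, which encodes survivin, averaged 288, 323, 249, 269 and 29.9, and Incenp, its scaffold, averaged 78.99, 58.9, 41.5, 37.6 and 10.4. Among the cytokinesis genes, Prc1, which bundles the central spindle, averaged 84.8, 80.3, 52.1, 32.3 and 6.37. Anln, the anillin of the contractile ring, averaged 72.2, 57.9, 36.6, 8.74 and 2.11, and Ect2, the exchange factor that activates RhoA at the division plane, averaged 93.3, 42.4, 15.1, 13.6 and 4.12. Ect2 was the member that fell furthest from mESC to D5-LSKCD201+ as a ratio of means. Top2a, the topoisomerase that untangles sister chromosomes, averaged 107, 94.2, 59.5, 64.9 and 18.2. The condensin subunits averaged 68.9, 67.99, 44.2, 84.1 and 25.9 (Smc2), 57.5, 66.4, 50.4, 82.2 and 41.7 (Smc4), 74.9, 60.2, 44.1, 34.5 and 12.9 (Ncapd2) and 58.2, 47.5, 25.2, 21.6 and 3.34 (Ncapg), and the 2 SMC subunits shared by both condensins were highest in fetal liver while the 2 subunits of condensin I were not. Mki67, the gene of the Ki-67 proliferation antigen, averaged 5.79, 6.06, 6.36, 20.7 and 3.80, and Foxm1, the transcription factor of G2 genes, averaged 10.1, 8.57, 7.47, 7.30 and 2.12. Relative to Top2a, Mki67 stood at 5.21% to 7.05% in D5-LSKCD201- but at 38.5% to 57.0% in the 3D+OP9 libraries. For Foxm1 these ranges were 5.13% to 11.4% and 26.8% to 39.3%. This limits what the levels of both genes stand for here and below, and the cause was not tested. Table loci of 6 members (Bub3, Cdc20, Cdc25b, Kif20a, Ncapg and Foxm1) spanned more than 1.5 times the length of the GENCODE gene of that symbol, which limits what these 6 levels stand for here and in the comparisons below.

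**Figure D3:**
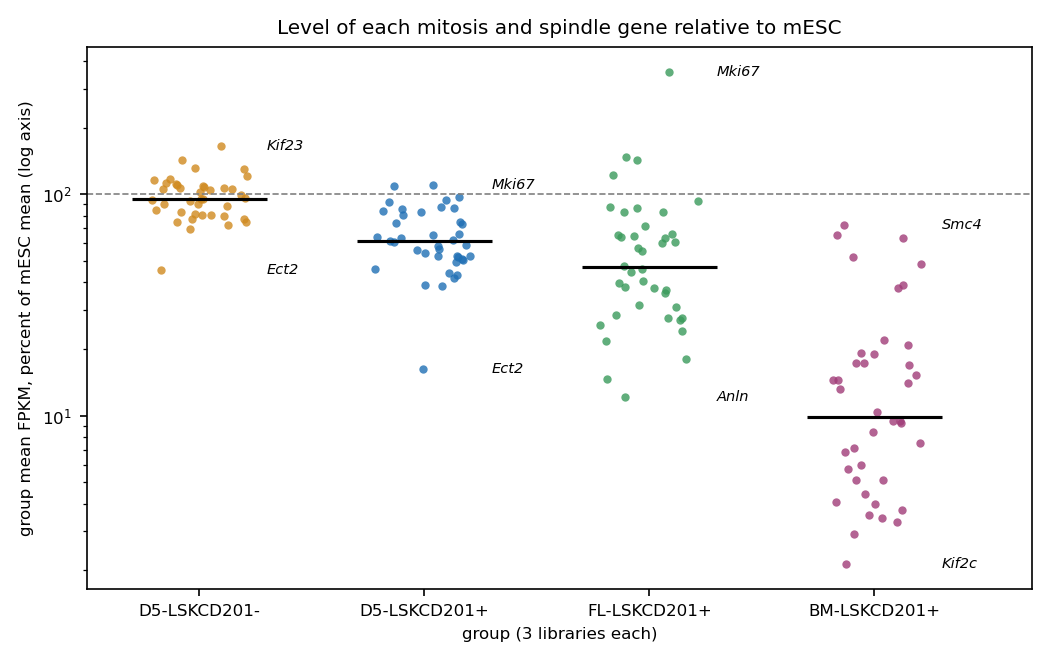
Group mean of each of the 40 genes as a percent of its mESC mean (log axis) in D5-LSKCD201-, D5-LSKCD201+, FL-LSKCD201+ and BM-LSKCD201+, with the median of each group as a line and the lowest and highest members named. The medians are 95.4%, 61.2%, 46.8% and 9.91%, and Mki67 in FL-LSKCD201+ lies at 358%.

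The comparison of D5-LSKCD201+ with D5-LSKCD201- asks how the genes of division differ between CD201-positive and CD201-negative cells of the same culture system. The fit took the libraries as unpaired. The members were lower in D5-LSKCD201+ almost without exception, but for most of them by less than the fold of 2 that makes a call. Of the 40 genes, 4 were called lower (Ect2, Cenpf, Cdc20 and Kif23) and 0 higher, where a call needs an adjusted p under 0.05 and a fold of at least 2, while 13.9% of all 13691 genes tested were lower by the same rule and 10.8% were higher. By adjusted p alone, 37 members were lower and 0 higher, against 39.6% of all genes that were lower. That count was 31 to 39 without single libraries and 31 with FPKM rescaled to the same sum in each library. In 36 members all 3 D5-LSKCD201+ libraries lay below all 3 D5-LSKCD201- libraries, which held for 42.0% of all genes. The median log2 difference was -0.64 over the 40 members and -0.12 over all genes tested, and 39 members had a negative difference. The share of members called, 4 of 40, was thus no larger than that of all genes, whereas nearly every member was lower by adjusted p alone. Without D5-LSKCD201- replicate 2, 5 members were called lower and the median was -0.65. With FPKM rescaled to the same sum 2 were called lower, since Cdc20 (-0.96) and Kif23 (-0.94) fell short of the fold of 2. Under quantile normalization Cdc20 (-0.94) fell short as well.

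Ect2 was listed at 15.1, 14.5 and 15.8 FPKM in the D5-LSKCD201+ libraries and at 43.3, 41.7 and 42.3 in the D5-LSKCD201- libraries. The groups were well apart, with a log2 difference of -1.43 (SE 0.061, adjusted p = 1.35e-06) and a ratio of FPKM means of 0.36. Cenpf was at 12.8, 12.04 and 12.6 FPKM against 26.9, 31.7 and 27.5, a difference of -1.14 (SE 0.081, adjusted p = 1.68e-05). Cdc20 was at 174, 174 and 171 against 333, 400.0 and 344, a difference of -1.04 (SE 0.075, adjusted p = 1.72e-05). Here D5-LSKCD201- replicate 2 was the highest library, and without it the difference was -0.96 and Cdc20 was no longer past the fold of 2. The locus of Cdc20 spans 9261 bases against 4452 for the GENCODE gene, so that its values are uncertain. Kif23 was at 37.4, 36.1 and 32.6 against 74.9, 72.8 and 69.9, a difference of -1.02 (SE 0.067, adjusted p = 1.15e-05). Kif23 lay so near the fold of 2 that leaving out D5-LSKCD201+ replicate 3 (-0.96) or D5-LSKCD201- replicate 1 (-0.99) ended its call. Just short of a fold of 2 were Melk (-0.96), Aurka (-0.94), Bub1 (-0.93) and Mad2l1 (-0.91), of which Aurka was at 97.4, 98.9 and 95.8 FPKM against 177, 205 and 182.

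By role, the median log2 difference was -0.78 for the 4 checkpoint genes, -0.69 for the 7 kinesins and spindle proteins, -0.68 for the 6 genes of mitotic entry and anaphase, and -0.65 for the 3 cytokinesis genes. It was -0.56 for the 6 kinases, -0.52 for the 6 genes of chromosome structure, -0.42 for Birc5 and Incenp, and -0.41 for the 5 kinetochore genes. Every role therefore lay below the median of all genes except the single transcription factor gene Foxm1. Among the members with an adjusted p under 0.05, the difference was smallest for Bub3, at -0.22 (SE 0.066, adjusted p = 0.0212), and next for Plk4, at -0.26 (SE 0.087, adjusted p = 0.0326). Incenp and Ncapd2, which were low in D5-LSKCD201- replicate 2, passed at adjusted p of 0.0385 and 0.0497. These 4 lay close to the threshold. With FPKM rescaled to the same sum, the adjusted p was 0.0983 for Bub3, 0.113 for Plk4, 0.0815 for Incenp and 0.103 for Ncapd2, and with no filter on low values it was 0.0716 for Incenp and 0.0890 for Ncapd2. Rescaling also took Cenpe (0.0622) and Nuf2 (0.0539) above 0.05. In one limma fit over all groups the adjusted p was 0.0510 for Birc5, 0.0524 for Cenpe, 0.0649 for Plk4 and 0.0639 for Pttg1. Without D5-LSKCD201- replicate 2 the differences were -0.67 for Incenp and -0.61 for Ncapd2.

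The 3 members that did not pass by adjusted p were Espl1, Foxm1 and Mki67. Espl1 was at 8.93, 8.76 and 8.65 FPKM in D5-LSKCD201+ and at 18.7, 8.18 and 18.7 in D5-LSKCD201-, a difference of -0.64 (SE 0.287, adjusted p = 0.0831). Its D5-LSKCD201- replicate 2 lay below every other day 5 library, and without that library Espl1 was called lower at -1.01. Foxm1 was at 7.36, 7.30 and 7.75 against 10.8, 4.89 and 10.05, a difference of -0.11 (SE 0.254, adjusted p = 0.717), and the same library was again the low one. Without it the Foxm1 difference was -0.43, with an adjusted p of 0.000753. Mki67 was at 6.04, 6.50 and 6.52 against 6.71, 4.96 and 6.51, a difference of 0.068 (SE 0.120, adjusted p = 0.638), and its groups overlapped. The difference of Mki67, the one member with a positive value, was thus smaller than the spread between replicates, and its sign turned to -0.049 without D5-LSKCD201- replicate 2. The limit on the levels of Mki67 and Foxm1 given above holds here as well.

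**Figure D4:**
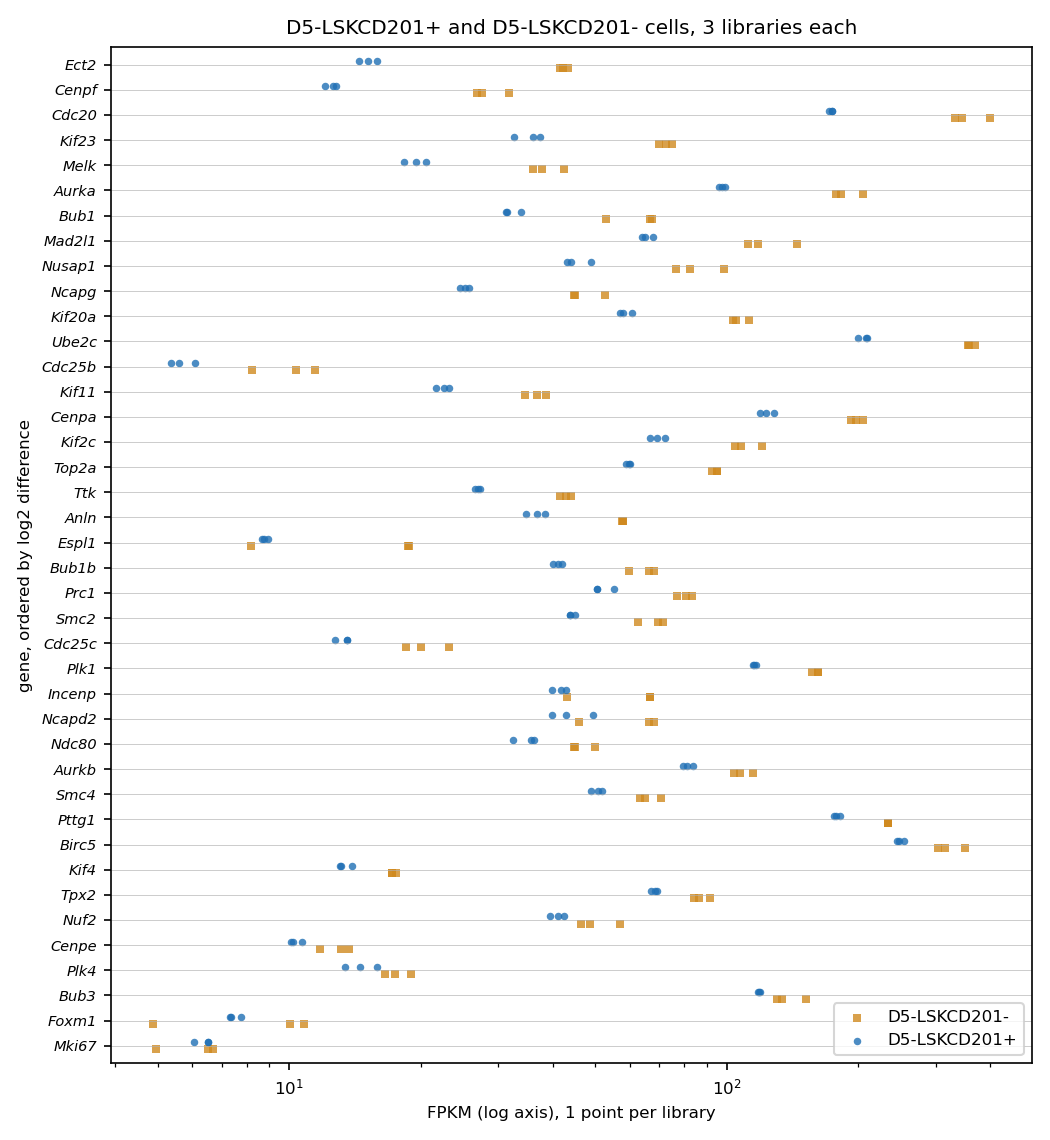
FPKM (log axis) of the 40 genes in the 3 D5-LSKCD201+ and 3 D5-LSKCD201- libraries, 1 point per library, ordered by the log2 difference. The D5-LSKCD201+ points of Ect2, at 14.5 to 15.8, lie far below the D5-LSKCD201- points at 41.7 to 43.3, whereas the points of Mki67 overlap at 4.96 to 6.71.

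Of the 57 other mitosis genes listed beside the members, 7 were called lower and 0 higher in D5-LSKCD201+, 53 had a negative difference and the median was -0.66. The strongest were Cenpm, a subunit of the constitutive centromere network, at 9.67 ± 0.815 FPKM (SD) against 30.9 ± 0.790, Kif18a, the kinesin that aligns chromosomes, at 6.37 ± 0.201 against 18.3 ± 1.09, and Spc24, an NDC80 complex subunit, at 39.5 ± 0.298 against 99.1 ± 8.35. Of 24 DNA replication genes, 3 were called lower and 0 higher, 23 had a negative difference and the median was -0.78. These 3 were the helicase subunit gene Mcm7 (86.7 ± 0.461 against 229 ± 12.5), the origin licensing factor gene Cdt1 (33.4 ± 0.996 against 84.3 ± 7.50) and the polymerase gene Pold1 (35.2 ± 0.738 against 72.9 ± 12.99). In both lists most differences were negative and few passed the fold of 2. Of 18 regulators of mitotic transcription, 2 were called lower and 0 higher, and the median was -0.36. Mybl2, the B-Myb activator named above, was at 19.3 ± 0.494 FPKM against 147 ± 10.97, a log2 difference of -2.86 (SE 0.068, adjusted p = 1.28e-07), and Nfyb, a subunit of NF-Y, was at 19.9 ± 2.26 against 44.02 ± 2.49. The difference of Mybl2 was larger in size than that of any of the 40 members. The 23 members with a CHR element in their window had a median difference of -0.65 and the 10 without one of -0.55, and all 4 members called lower held one. Melk (-0.96) and Bub1 (-0.93), just short of a fold of 2, held none. Bub1 passed it without D5-LSKCD201- replicate 2 (-1.04) and Melk without D5-LSKCD201- replicate 3 (-1.01). Whether the element has a part in these differences was not tested.

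Each day 5 fraction was next set against mESC, the cells from which both derive. These comparisons share the mESC libraries, and each shares a day 5 group with the comparison above. The comparisons with FL- and BM-LSKCD201+ further on share libraries in the same way. In mESC the 8 endothelial genes summed to 23.7 to 24.3 FPKM and the 10 stromal genes to 8.39 to 9.56. The pluripotency, endothelial and stromal transcripts of the day 5 fractions given above thus moved with both comparisons, and their part was not tested. In D5-LSKCD201+, 8 members were called lower than in mESC and 0 higher, while 18.1% of all 13441 genes tested were lower and 19.5% higher. By adjusted p alone 36 were lower, against 45.2% of all genes, and 1 was higher, against 40.3%. The median was -0.69 over the members and -0.07 over all genes. The 8 were Ect2, Cdc20, Melk, Ncapg, Espl1, Bub1b, Kif11 and Mad2l1. Ect2 was at 90.5, 93.98 and 95.5 FPKM in mESC, a log2 difference of -2.55 (SE 0.046, adjusted p = 1.48e-10), which left D5-LSKCD201+ at 16.2% of the mESC mean. The difference was -1.37 (SE 0.034, adjusted p = 9.52e-10) for Cdc20, at 468, 438 and 445 FPKM in mESC, and -1.32 (SE 0.055, adjusted p = 2.55e-08) for Melk, at 47.7, 52.01 and 50.5 against 18.3, 20.5 and 19.5. The members against this direction were Pttg1, at 0.12 (SE 0.036, adjusted p = 0.0111), and Mki67, at 0.11 (SE 0.067, adjusted p = 0.136), and neither was called.

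In D5-LSKCD201- the members were near their mESC levels. Ect2 was called lower, at -1.12 (SE 0.052, adjusted p = 3.78e-06), and no member was called higher, while 3.48% of all 13596 genes tested were lower and 10.9% higher. By adjusted p alone 12 members were lower, against 22.4% of all genes, and 6 were higher, against 32.2%. Without D5-LSKCD201- replicate 2 these counts were 16 lower and 10 higher, against 27.8% and 39.7% of all genes, and Ect2 was again the one member called. The median was -0.07 over the members and 0.05 over all genes, with 18 positive and 22 negative differences. Kif23, at 74.9, 72.8 and 69.9 FPKM against 41.4, 45.8 and 44.9 in mESC, had the largest positive difference, 0.71 (SE 0.062, adjusted p = 7.81e-05). Pttg1 was at 234, 234 and 233 against 170.5, 159 and 161, a difference of 0.51 (SE 0.049, adjusted p = 0.000123). Both genes were thus higher than in mESC in each D5-LSKCD201- library, by less than a fold of 2. Ect2 was the one member called lower in both day 5 fractions, while the members of the checkpoint ranged from -0.52 for Bub1b to 0.10 for Bub3. Without D5-LSKCD201- replicate 2 that range ran from -0.46 for Bub1b to 0.17 for Bub1, with Bub3 at 0.038. The members that this library moved most were Espl1, from -0.52 to -0.15 without it, and Foxm1, from -0.28 to 0.036.

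Against fetal liver cells of the same surface phenotype, members of D5-LSKCD201+ were in the main fit called no more often than genes at large. Anln, Pttg1 and Kif2c were the furthest above and Mki67 and Cdc25b below. Of the 40 genes, 5 were called higher (Anln, Pttg1, Kif2c, Bub1 and Plk1) and 2 lower (Mki67 and Cdc25b), while 15.1% of all 13627 genes tested were higher and 19.6% lower. By adjusted p alone 22 members were higher, against 30.1% of all genes, and 5 were lower, against 42.0%. Without FL replicate 1 these counts were 28 higher and 10 lower, against 35.7% and 48.9% of all genes. The median was 0.31 over the members and -0.16 over all genes, and 29 differences were positive. With FPKM rescaled to the same sum, 8 members were called higher, and the median was 0.49 over the members and -0.02 over all genes. Without FL replicate 1, 6 members were called higher and 2 lower, with a median of 0.30. Kif20a and Smc2 gained the call and Cdc25b lost it. Anln was at 36.8, 38.3 and 34.7 FPKM in D5-LSKCD201+ and 9.99, 8.13 and 8.12 in FL-LSKCD201+, a difference of 1.95 (SE 0.098, adjusted p = 3.32e-06). Its ratio of FPKM means was 4.19. Kif2c was at 66.9, 72.2 and 69.4 against 23.01, 22.1 and 21.6, a difference of 1.60 (SE 0.066, adjusted p = 1.37e-06). Pttg1 was at 182, 175 and 178 against 32.4, 61.6 and 61.4, a difference of 1.82 (SE 0.241, adjusted p = 0.00043). The groups did not overlap for any of these 3, and for Pttg1 the FL library that stood apart was the lowest. Without that library the difference of Pttg1 was 1.52. Mki67 went the other way, at 6.04, 6.50 and 6.52 FPKM against 14.2, 24.3 and 23.6, a difference of -1.53 (SE 0.197, adjusted p = 0.000378), and the low FL library was again replicate 1. Without it the difference of Mki67 was -1.76. Cdc25b was at 6.09, 5.61 and 5.38 against 17.1, 12.2 and 11.9, a difference of -1.13 (SE 0.143, adjusted p = 0.000343), and without FL replicate 1 it was -0.97 and no longer called.

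By role, the medians against FL-LSKCD201+ were 0.68 for the cytokinesis genes, 0.67 for the kinases and 0.59 for the kinesins, but -0.11 for the kinetochore genes and -0.39 for the genes of chromosome structure. Without FL replicate 1 the last 2 medians were -0.28 and -0.54. Among the genes of chromosome structure, Smc2 was at 43.9, 44.95 and 43.8 FPKM against 53.97, 101 and 97.6 and Smc4 at 48.8, 50.6 and 51.7 against 60.1, 94.2 and 92.4. Both were lower in D5-LSKCD201+ by adjusted p (0.0132 and 0.0112) but by less than a fold of 2. Without FL replicate 1, the lowest FL library for both, Smc2 was called lower at -1.15 and Smc4 was at -0.88, and Birc5 went from -0.063 to -0.33. Of the 57 other mitosis genes 3 were called higher and 4 lower (median 0.14), and of the 24 DNA replication genes 0 were called higher and 3 lower (median -0.37). The erythroid, myeloid and hepatocyte transcripts of the FL libraries moved with this comparison, and their part in it was not tested.

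Against adult bone marrow the members were far higher in D5-LSKCD201+. Of the 40 genes, 34 were called higher and 0 lower, while 17.5% of all 13775 genes tested were higher and 27.2% lower. All 40 were higher by adjusted p alone, against 34.2% of all genes, and in all 40 the 3 D5-LSKCD201+ libraries lay above the 3 BM-LSKCD201+ libraries, against 35.2% of all genes. The median was 2.29 over the members and -0.23 over all genes. Kif2c was at 3.65, 1.89 and 2.33 FPKM in BM-LSKCD201+, a log2 difference of 4.31 (SE 0.163, adjusted p = 2.09e-07) and a ratio of means of 26.5. Plk1 was at 116, 115 and 115 in D5-LSKCD201+ and 4.19, 6.75 and 6.69 in BM-LSKCD201+, a difference of 4.11 (SE 0.151, adjusted p = 1.79e-07). Ube2c was at 199.7, 208 and 209 against 11.97, 10.7 and 11.6, a difference of 4.06 (SE 0.054, adjusted p = 2.24e-09). These 3 genes act at different steps of mitosis, and for each the groups lay far apart. Without BM replicate 1 the difference was 4.51 for Kif2c and 3.91 for Plk1, and 34 members were again called higher. The 6 members that were not called were Smc4 (0.27), Kif23 (0.34), Cdc25b (0.53), Mki67 (0.62), Smc2 (0.75) and Bub3 (0.82). Mki67 was at 4.57, 3.38 and 3.46 FPKM in BM-LSKCD201+, whereas Top2a was at 60.1, 59.7 and 58.8 against 16.9, 19.9 and 17.8, a difference of 1.66 (SE 0.066, adjusted p = 2.70e-07). Of the 57 other mitosis genes 43 were called higher and 1 lower (median 1.72), and of the 24 DNA replication genes 9 higher and 1 lower (median 0.73). The endothelial transcripts of D5-LSKCD201+ given above moved with this comparison and with that against FL-LSKCD201+. In BM-LSKCD201+ the 10 stromal genes summed to 8.74 to 9.49 FPKM, and 7 myeloid genes to 672 to 801 against 8.36 to 8.79 in D5-LSKCD201+. The part of these transcripts was not tested.

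The in vivo populations were compared with each other to see where fetal liver stands against adult marrow. In FL-LSKCD201+ 36 members were called higher than in BM-LSKCD201+ and 0 lower, while 7.78% of all 13503 genes tested were higher and 11.3% lower. The median was 1.95 over the members and -0.13 over all genes. Without FL replicate 1 or without BM replicate 1, 37 members were called higher, Smc4 being the one gained, and Smc2 went from 1.61 to 1.90 without FL replicate 1. The summed level of the erythroid list was 4860 to 10921 FPKM in FL-LSKCD201+ and 57.2 to 82.3 in BM-LSKCD201+, that of 7 myeloid genes 2165 to 2193 and 672 to 801, and that of the hepatocyte list 375 to 587 and 6.08 to 9.78, and their part in these differences was not tested. Ube2c was at 186, 229 and 234 FPKM in FL-LSKCD201+, a difference of 4.12 (SE 0.112, adjusted p = 7.58e-07). Birc5 was at 179, 324 and 303 against 29.2, 29.95 and 30.4, a difference of 3.08 (SE 0.214, adjusted p = 3.31e-05), and Plk1 at 64.2, 51.1 and 49.8, a difference of 3.04 (SE 0.184, adjusted p = 1.85e-05). The FL libraries lay far above the BM libraries for all 3, although replicate 1 of FL-LSKCD201+ was well below the other 2 for Birc5, whose difference was 3.35 without it. The 4 members not called were Kif23, Bub3 (0.73), Smc4 (0.94) and Pttg1. Kif23 was at 27.5, 29.1 and 29.3 FPKM against 24.7, 27.8 and 31.1, a difference of 0.043 (SE 0.104, adjusted p = 0.746), and the groups overlapped. Without BM replicate 1 the Kif23 difference was -0.038. Pttg1 had the one negative difference, -0.66 (SE 0.242, adjusted p = 0.0519), from 32.4, 61.6 and 61.4 FPKM in FL-LSKCD201+ and 71.5, 85.1 and 81.1 in BM-LSKCD201+. Both of its replicates 1 were the lowest of their groups, and the groups did not overlap. Without FL replicate 1 the difference of Pttg1 was -0.36 (adjusted p = 0.00979), and without BM replicate 1 it was -0.73 (adjusted p = 0.0894). Of the 57 other mitosis genes 42 were called higher and 0 lower (median 1.55), and of the 24 DNA replication genes 12 higher and 0 lower (median 1.07).

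**Figure D5:**
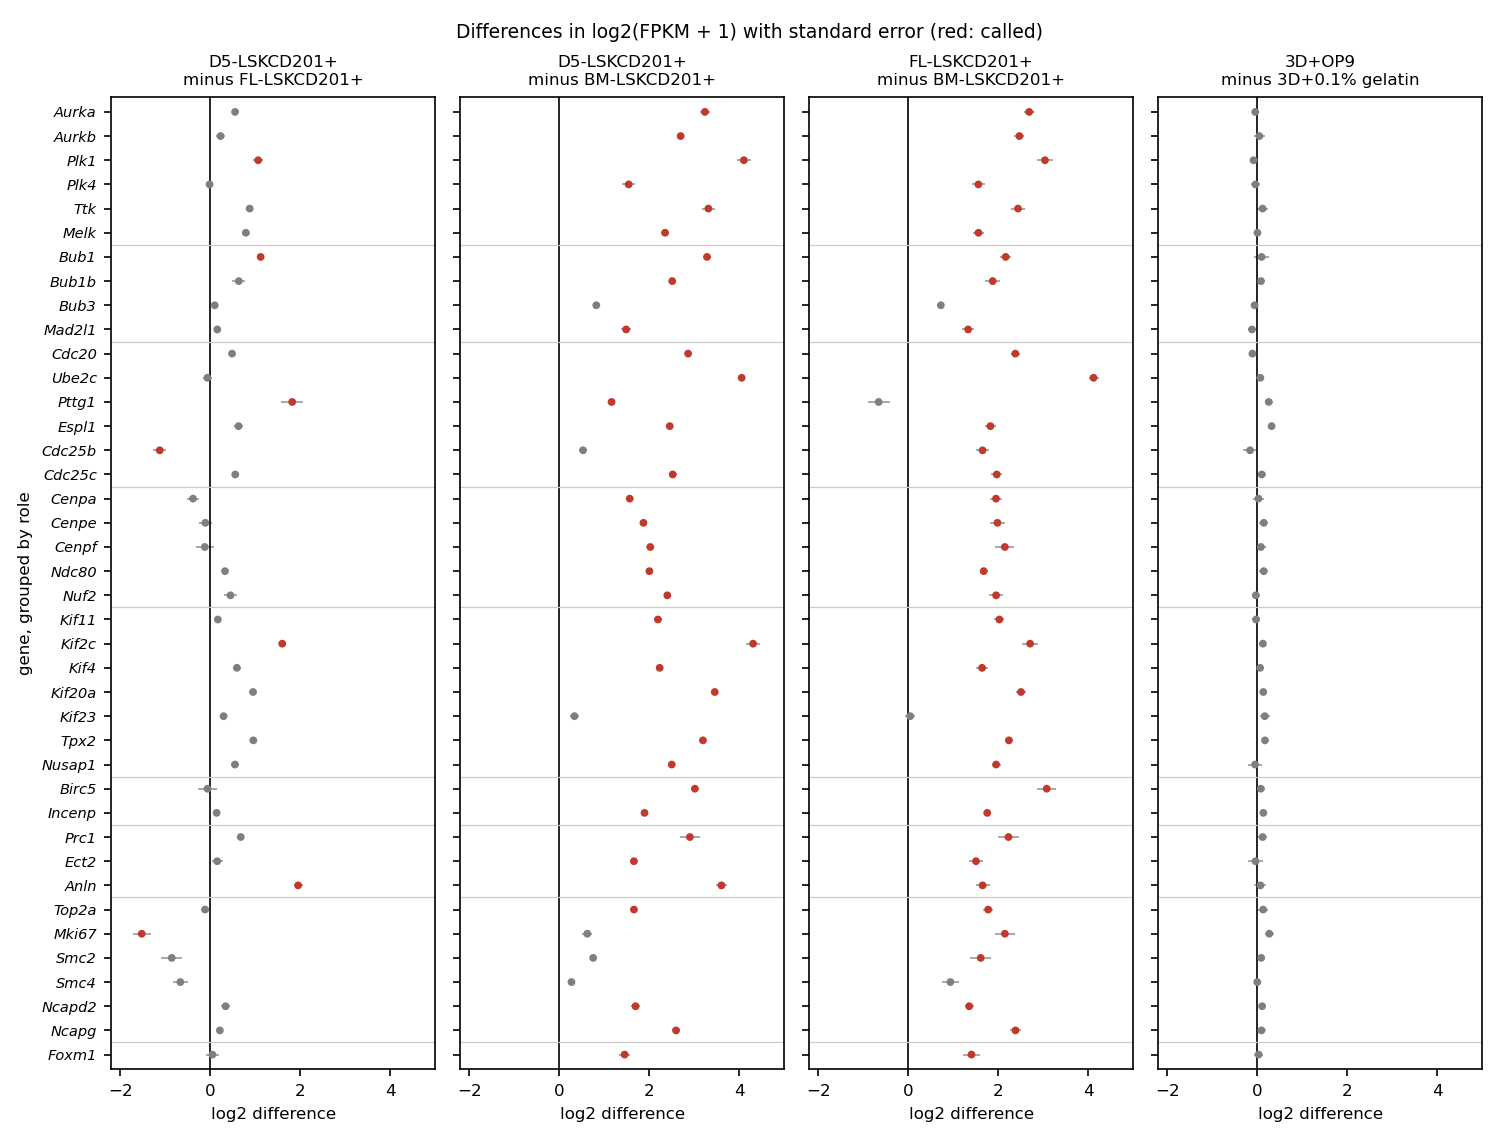
Log2 difference with its SE for each of the 40 genes in 4 comparisons (D5-LSKCD201+ minus FL-LSKCD201+, D5-LSKCD201+ minus BM-LSKCD201+, FL-LSKCD201+ minus BM-LSKCD201+, and 3D+OP9 minus 3D+0.1% gelatin), with called genes in red. Of the 40 genes, 34 are called higher against bone marrow in D5-LSKCD201+ and 36 in FL-LSKCD201+, and 0 between OP9 and gelatin, where all differences lie between -0.16 and 0.32.

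In the total cells of day 5, no member differed past the test between coculture on OP9 and culture on gelatin, and every difference lay between -0.16 and 0.32 on the log2 scale. Of the 40 genes, 0 were called by limma in either direction, while 2.11% of all 12958 genes tested were higher on OP9 and 0.509% lower. At an unadjusted p under 0.05 there were 4 members (Espl1, Pttg1, Mki67 and Tpx2), against 22.9% of all genes, and in 7 members the libraries of the groups did not overlap, against 28.7% of all genes. The median difference was 0.08 over the members and 0.01 over all genes, and 29 differences were positive. Without OP9 replicate 3, 0 members were called and the median was 0.026. Espl1 had the largest, with 20.3, 21.7 and 20.2 FPKM on OP9 and 15.2, 17.2 and 16.9 on gelatin, a difference of 0.32 (SE 0.085, adjusted p = 0.073). Mki67 was at 47.2, 46.7 and 37.1 against 35.3, 37.6 and 34.8, a difference of 0.27 (SE 0.105, adjusted p = 0.183). Pttg1 was at 83.8, 83.3 and 78.02 against 73.7, 61.3 and 70.3, a difference of 0.26 (SE 0.086, adjusted p = 0.131). None of these 3 passed the correction, and for Mki67 replicate 3 on OP9 lay within the gelatin range. Without that library, the one that stood apart, the difference was 0.38 (adjusted p = 0.0162) for Mki67 and 0.34 (adjusted p = 0.0485) for Espl1, both under the fold of 2. These were the 2 of 40 members then higher by adjusted p alone, against 8.53% of all genes. Cdc25b was the most negative, at -0.16 (SE 0.158, adjusted p = 0.602), with its replicates on OP9 spread from 5.80 to 9.24 FPKM, and at -0.33 (adjusted p = 0.0802) without replicate 3. The summed level of 10 stromal genes was 75.0 to 86.6 FPKM on OP9 and 45.6 to 56.3 on gelatin, that of 8 erythroid genes 216 to 772 and 4.81 to 22.2, and that of 8 endothelial genes 83.5 to 102 and 10.9 to 22.8, and their part in these values was not tested. For 8 pluripotency genes the sums were 826 to 1657 FPKM and 1277 to 1366. Of the other mitosis, replication and regulator lists, 0 genes were called in either direction in the same test. The coculture table was normalized separately from the sorted-cell table, so that its levels are not set against those above.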

How the data were processed

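RNA-seq was measured in 21 mouse libraries. The methods name TRIzol for the extraction and paired 150-base reads, and the submitters' processing notes name HISAT2 2.0.5, StringTie 1.3.3, Cuffdiff 1.3.0, GRCm38 and mm9. The deposited values are FPKM made by the authors, in a table of 15 sorted-cell libraries and one of 6 coculture libraries normalized separately (summed FPKM 508622 to 620332 and 483263 to 508307), where 3578 coculture genes are blank throughout. FPKM keeps no read counts, so the depth is unknown and no counting interval is given. Sample titles write CD021 where the source labels write CD201. No deposited column held other samples' values.

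Differences were fitted per pair of groups on log2(FPKM + 1) with limma 3.58.1 (R 4.3.3, trend option, two-sided), over genes that averaged 0.5 FPKM or more in the samples compared, with Benjamini-Hochberg adjustment over all genes tested. A gene was called at an adjusted p under 0.05 and a fold of at least 2. With 3 against 3 libraries an exact permutation test cannot go below 0.1, so no single-gene permutation p is given. The log2(FPKM + 1) scale understates the change of genes near 0. The fit was tested on simulated data. The members and the other gene lists were chosen with earlier results of these data known. Named were all 40 members by level, any member in D5-LSKCD201+ against D5-LSKCD201-, the 3 largest calls per direction and members against the majority elsewhere, and the 3 largest calls of each other list. Additional genes named beside a count or a role were chosen after their values were seen.

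Same-numbered FL and BM replicates deviated together (correlations of deviations 0.25, 0.20 and 0.17, from the data and not stated in the labels), and a replicate block left 36 members called higher. For 3D+OP9 and 3D+0.1% gelatin these correlations were 0.18, 0.07 and 0.29. Alternatives were another pseudocount (0.1), filters at 1 FPKM and none, FPKM rescaled to a sum of 1000000 per library, quantile normalization, a replicate block, one fit over all groups, adjusted p alone and each replicate left out.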

Additional observations from a re-analysis of the deposited data

How the results depend on the processing

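The member medians kept their sign under every alternative that was run. In D5-LSKCD201+ against D5-LSKCD201-, rescaling FPKM to a sum of 1000000 per library left 2 members lower and a median of -0.57, and adjusted p alone gave 37 lower. Cdc20 fell short of the fold of 2 under rescaling (-0.96) and quantile normalization (-0.94), and Kif23 under rescaling (-0.94). Leaving out 1 library gave 3 to 5 members lower, with Bub1 (-1.04) and Espl1 (-1.01) called without D5-LSKCD201- replicate 2 and Melk (-1.01) without replicate 3. Without single libraries Foxm1 ranged from -0.43 to 0.071 and Mki67 from -0.049 to 0.14, and averaging the closest pair of replicates, chosen after seeing the data, gave 0.047 for Foxm1. Against mESC, the D5-LSKCD201+ median was -0.72 under quantile normalization, and adjusted p alone gave 1 higher and 36 lower, and 6 higher and 12 lower for D5-LSKCD201-. Against FL-LSKCD201+, rescaling gave 8 higher and a median of 0.49, quantile normalization 1 lower (Cdc25b at -0.997 lost its call), adjusted p alone 22 higher and 5 lower, and leaving out 1 library a median of 0.26 to 0.33. Against BM-LSKCD201+, the median was 2.59 with a pseudocount of 0.1, 2.62 rescaled and 2.57 under quantile normalization. For FL- against BM-LSKCD201+ these were 2.08, 2.03 and 2.06, with 1.90 when the closest pairs were averaged and 1.89 to 1.97 without single libraries. Mki67 in D5-LSKCD201+ against mESC was at -0.0019 under quantile normalization, and Kif23 in FL- against BM-LSKCD201+ ran from -0.038 to 0.12 without single libraries. The causes were not tested. Quantile normalization moved the median of all genes from -0.12 to -0.01 in D5-LSKCD201+ against D5-LSKCD201-, and from -0.23 to -0.02 against BM-LSKCD201+. The replicate block left 4 members lower and a median of -0.64 in D5-LSKCD201+ against D5-LSKCD201- and changed no other count. No label says what a shared replicate number marks. With FPKM alone, counting error cannot be separated from the spread between replicates.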

Other observations

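The level of Mki67 relative to Top2a within the same library differed between the tables. In the coculture table Mki67 was at 38.5% to 57.0% of Top2a on OP9 and at 40.9% to 50.3% on gelatin. In the sorted-cell table it was at 5.23% to 5.54% in mESC, 5.21% to 7.05% in D5-LSKCD201-, 10.1% to 11.1% in D5-LSKCD201+, 17.0% to 27.1% in BM-LSKCD201+ and 25.1% to 34.9% in FL-LSKCD201+. Foxm1 was at 26.8% to 41.1% of Top2a over the 6 coculture libraries and at 5.13% to 16.3% over the 15 sorted-cell libraries. For Espl1 the ranges met, at 19.7% to 25.2% and 4.04% to 20.3%. Aurka went the other way in most groups, being at 48.8% to 61.5% of Top2a over the coculture libraries. In the sorted-cell table it was at 162% to 216% in mESC and the day 5 fractions. It was at 90.6% to 122% in FL-LSKCD201+ and 45.7% to 58.0% in BM-LSKCD201+. The gene models behind the tables were not compared, and why the ratios differ was not tested.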
